A study of Homo sapiens with 27 samples.

Results

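Interleukin 13 and interleukin 4 signal through a small set of shared receptor chains, and 4 genes of that set were followed here across every condition of the series: IL13RA2, IL13RA1, IL4R and STAT6. They were chosen by name, as the receptor chains for these cytokines and the transcription factor that acts below them. IL13RA2 was in addition selected on these data, because it is among the largest rises of the NET29 and NET39 lines. The values of those 2 comparisons are therefore given for all 4 genes as a description with no test. The 4 genes are 4 of 18665 genes with a named probe, and each is read by 1 probe on the array.

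As background, IL-4 binds IL4R, the IL-4 receptor alpha chain, and the complex is completed either by the common gamma chain IL2RG, mainly in blood cells, or by IL13RA1 in most other cells. IL-13 binds IL13RA1 first and then recruits IL4R. Both routes activate Janus kinases, which phosphorylate STAT6 so that it enters the nucleus and switches on target genes. IL13RA2 binds IL-13 with high affinity outside the cell, and its short cytoplasmic tail carries no Janus kinase site. It is known as a decoy receptor, as a binding partner of the chitinase-like protein CHI3L1, and as a surface antigen of several tumors.

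HT1080, a human fibrosarcoma line with fibroblast character, was grown in serum-containing medium and its total RNA was hybridized to 27 bead arrays in 8 groups. Nuclear envelope transmembrane proteins (NETs) tagged with GFP were expressed in 2 ways. Stable lines, selected with Geneticin, carried full-length NET29 (TMEM120A, 4 arrays), NET39 (PLPP7, 4 arrays) or NET47 (TM7SF2, 3 arrays) and are set against untreated cells (4 arrays), which carry no construct. Other cells were transfected with the nucleoplasmic, soluble part of 1 NET (3 arrays each). They are set against cells transfected with GFP carrying a nuclear localization signal (NLS-GFP, 3 arrays). These transfected cells are taken as transient here, though the study's text in 1 place calls the fragment cells stable. The groups are called lines and fragments below. The sources used here do not say how many independent clones stand behind each line, so the spread is between arrays and leaves clonal differences out.

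All levels are normalized intensities on the log2 scale, and all differences are log2 differences between group means with the standard error of 1 limma model over the 27 arrays. A gene was called where its p, adjusted by Benjamini-Hochberg over all 48803 probes, was under 0.05 and its log2 difference was beyond 0.5. A probe counts as above background on an array where it exceeds the 95th percentile of probes for olfactory, taste, hair and defensin gene families, taken as silent. The levels of different probes are not compared with each other, because each probe has its own brightness.

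Before the results, 3 arrays stand apart from their groups. On the first principal component untreated replicate 4 lay among the transient arrays, and on the second untreated replicate 2 and NET47 line replicate 3 lay away from all others. Median intensities ranged from 46.9 to 58.9 on untreated and stable arrays and from 54.8 to 73.5 on transient ones. Of 7 measured mesenchymal markers, 4 (VIM, CD44, ENG and LGALS1) were above background on all 27 arrays and FN1 on 7. None of 4 epithelial markers was above background on more than 6 arrays, nor any of 4 blood markers on more than 16. Of the genes introduced, TM7SF2 was higher by 5.95 ± 0.10 in the NET47 line (limma adjusted p = 1.04e-22) and TMEM120A by 1.31 ± 0.12 in the NET29 line (adjusted p = 5.16e-08). The PLPP7 probe was not raised in the NET39 line (-0.30 ± 0.07, adjusted p = 0.00700), and the sources do not say whether it lies within the introduced sequence, so it checks nothing about that label. None of the 3 genes was called in any fragment group.

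IL13RA2, the high-affinity IL-13 chain, was the most variable of the 4 genes, with group means that spanned 2.75. That is the 99.8th percentile of the spans of the 11908 genes above background on at least 3 arrays. The span includes the NET29 and NET39 lines, whose rises chose the gene. IL13RA2 was above background on all 27 arrays, but in several groups only just. Its lowest array was 1.11 times background in untreated cells and 1.10 times with the NET47 fragment. It was 1.32 times with NLS-GFP and 1.56 times with the NET29 fragment. The lowest arrays of the NET29 and NET39 lines were at 9.43 and 10.9 times. Differences from the low groups thus rest partly on readings near background. Untreated cells gave 7.39, 6.51, 7.18 and 6.49, with 2 arrays higher and 2 lower. In the NET29 line the arrays read 9.29, 8.98, 8.995 and 9.28. In the NET39 line they read 9.23, 9.18, 9.36 and 9.56. Every array of both lines lay above every other array of the series. As scanned, before normalization, the NET29 line gave 531 to 797 intensity units and the NET39 line 603 to 756, against 71.5 to 257 in untreated cells.

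The remaining groups lay lower and closer together. In the NET47 line IL13RA2 read 8.11, 7.83 and 7.30, of which the lowest was replicate 3. With NLS-GFP it read 6.61, 6.75 and 7.52. Replicate 3 of NLS-GFP was thus higher than the highest untreated array. The NET29 fragment gave 7.30, 7.19 and 7.36, the tightest of the 8 groups. The NET39 fragment gave 7.78, 8.03 and 7.83, and the NET47 fragment 6.43, 6.33 and 6.995. All 3 arrays of the NET39 fragment lay above all arrays of the other transient groups.

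**Figure D1:**
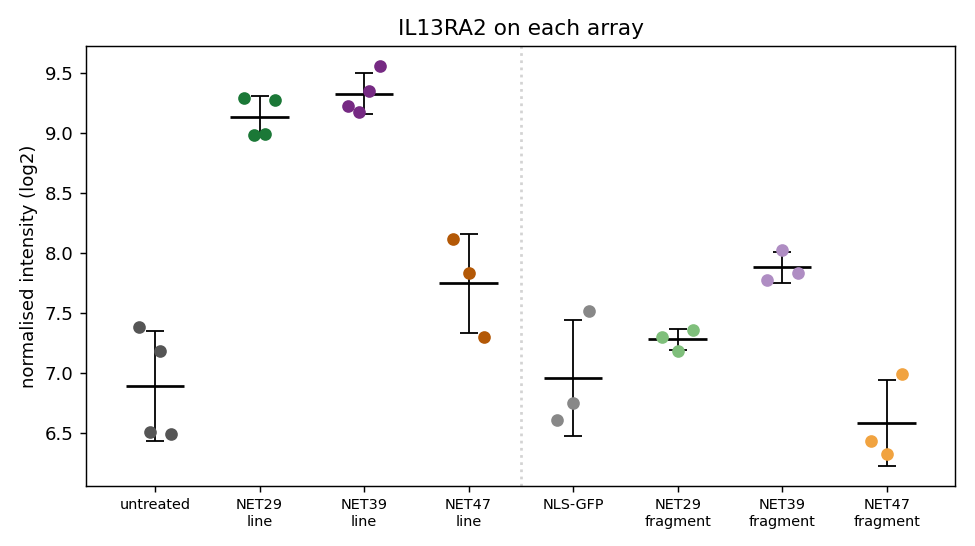
IL13RA2 level (normalized intensity, log2) on each of the 27 arrays by group; points are arrays, horizontal bars are group means and error bars are 1 SD. The 8 arrays of the NET29 and NET39 lines sit between 8.98 and 9.56, above all others, and the 3 arrays of the NET39 fragment sit between 7.78 and 8.03, above the other transient groups.

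Ordered by mean, the IL13RA2 levels were 9.33 ± 0.17 (SD, n = 4) in the NET39 line, 9.14 ± 0.17 (n = 4) in the NET29 line, 7.88 ± 0.13 (n = 3) with the NET39 fragment and 7.75 ± 0.41 (n = 3) in the NET47 line. They went on with 7.28 ± 0.09 (n = 3) for the NET29 fragment, 6.96 ± 0.49 (n = 3) for NLS-GFP, 6.89 ± 0.46 (n = 4) for untreated cells and 6.58 ± 0.36 (n = 3) for the NET47 fragment. In this order the ranges of neighboring groups overlapped at every step but 1, the gap of 1.26 between the NET29 line and the NET39 fragment. The NET29 and NET39 lines themselves differed by 0.19, about the SD within each.

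In the contrasts that chose it, IL13RA2 was higher by 2.25 ± 0.20 in the NET29 line (4.74-fold) and by 2.44 ± 0.20 in the NET39 line (5.42-fold). These ranked 1 and 3 among 18665 genes ordered from the largest rise. TRIML2 (2.24) and MMP3 (2.09) followed it in the NET29 line, and PPARG (2.65) and MMP3 (2.51) preceded it in the NET39 line. Set against NLS-GFP in place of untreated cells, the differences were 2.18 and 2.37. Without the 3 arrays that stand apart they were 1.85 and 2.05, since the untreated arrays then left are the higher ones. Of all genes, 1.06% were called higher and 2.23% lower in the NET29 line, and 1.21% and 2.51% in the NET39 line.

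In the NET47 line IL13RA2 was 0.86 ± 0.22 above untreated cells (1.81-fold, 95% interval 0.40 to 1.31), ranges overlapped, and the difference was not called (limma adjusted p = 0.0709). Its rank from the largest rise was 39. This comparison shares the untreated arrays with the 2 that chose the gene. The call turned on single arrays: without untreated replicate 1 the difference was 1.02 (adjusted p = 0.0172), without NET47 line replicate 3 it was 1.08 (adjusted p = 0.0258), and without the 3 arrays that stand apart it was 0.69 (adjusted p = 0.295). Among all genes, 0.584% were called higher and 0.627% lower in this line.

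Among the fragments, IL13RA2 with the NET39 fragment was 0.92 ± 0.24 above NLS-GFP (1.90-fold, 95% interval 0.44 to 1.41) and no array of one group reached the other, but the difference was not called (limma adjusted p = 0.144). Only 0.107% of all genes were called higher and 0.0375% lower with that fragment, and IL13RA2 ranked 12 from the largest rise. Without NLS-GFP replicate 3, the high one, the difference was 1.20 (adjusted p = 0.0121), in a fit that called 289 genes where the full one called 27. It was also called in the fit without the 3 arrays that stand apart, none of which belongs to these groups (0.92, adjusted p = 0.0144), and with only the 2 groups (adjusted p = 0.0347), where 124 and 132 genes were called. With the NET29 fragment the difference was 0.32 ± 0.24 (interval -0.16 to 0.81, adjusted p = 0.581), where 0.498% of genes were called higher and 0.804% lower.

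With the NET47 fragment IL13RA2 differed from NLS-GFP by -0.37 ± 0.24 (95% interval -0.86 to 0.11, limma adjusted p = 0.808), where 0.354% of genes were called higher and 0.814% lower. The replicate numbers of these 2 groups deviated together. In a fit of their 6 arrays alone with the replicate block the adjusted p was 0.00289, still short of a call because the difference is within 0.5. That fit has few residual degrees of freedom and leans on the spread shared over all probes. Of all genes, 218 were called in that comparison over all arrays and 239 with the block. Over the 6 arrays alone 262 were called without the block and 374 with it. Without NLS-GFP replicate 3 the unblocked difference was -0.10. NLS-GFP cells and untreated cells differed by 0.07 ± 0.22 (interval -0.39 to 0.52, adjusted p = 0.920), with 0.418% of genes called higher and 0.696% lower.

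Contrasts between the fragments were added after the levels had been seen. IL13RA2 was higher with the NET39 fragment than with the NET47 fragment by 1.30 ± 0.24 (2.46-fold, 95% interval 0.81 to 1.78), which was called (limma adjusted p = 0.00281). After scaling to a common median in place of quantile normalization it was 1.01 and no longer called (adjusted p = 0.157). The NET39 and NET29 fragments differed by 0.60 (adjusted p = 0.301), and the NET29 and NET47 fragments by 0.70 (adjusted p = 0.121). For NET47, the effect of the line exceeded that of the fragment by 1.23 ± 0.32 (adjusted p = 0.146).

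IL13RA1, the chain that pairs with IL4R to form the signaling IL-13 receptor, varied little. Its group means ran from 9.25 ± 0.04 (SD, n = 3) with the NET29 fragment to 9.70 ± 0.01 (n = 3) with the NET47 fragment. The span of 0.45 is at the 52.8th percentile of genes above background on at least 3 arrays. Untreated cells gave 10.01, 9.60, 9.53 and 9.58, of which replicate 1 stood alone. The NET29 line gave 9.43, 9.51, 9.37 and 9.45, all below the untreated arrays, and the NET39 line 9.55, 9.29, 9.32 and 9.50, within reach of them. In these lines the differences from untreated cells were -0.24 ± 0.08 and -0.26 ± 0.08, as a description. Without untreated replicate 1 they were -0.13 and -0.15.

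In the tested comparisons IL13RA1 was not called. With the NET29 fragment it read 9.21, 9.26 and 9.29 against 9.45, 9.57 and 9.59 with NLS-GFP, which do not overlap, and differed by -0.28 ± 0.09 (limma adjusted p = 0.147). With the NET47 fragment it read 9.69, 9.70 and 9.72, a difference of 0.17 ± 0.09 (adjusted p = 0.750). Set against each other, the NET29 and NET47 fragments differed by -0.45 ± 0.09 (adjusted p = 0.00599), which is within the limit of 0.5. Of 14 alternative settings 1 gave a call, and the largest difference among them was -1.32. The NET39 fragment gave 9.34, 9.39 and 9.52 and the NET47 line 9.68, 9.67 and 9.50, with differences of -0.12 ± 0.09 (adjusted p = 0.775) and -0.07 ± 0.09 (adjusted p = 0.984). The ranges of all neighbors in the order of means overlapped, except those of the NET39 line and the NET29 fragment, the lowest.

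IL4R, the chain common to both cytokines, separated the transient from the other arrays. All 12 transient arrays read between 7.40 and 7.70, and 14 of the 15 untreated and stable arrays read between 7.82 and 8.31. Untreated replicate 4 read 7.51, among the transient ones. The first principal component, with 43.8% of the variance of the most variable probes, divided the arrays in the same way. How many other genes split like this was not counted, so the split is not shown to be particular to IL4R. The highest group was the NET47 line, with 8.08, 8.31 and 8.29. Untreated cells gave 8.12, 8.26, 7.90 and 7.51, and the NET29 and NET39 lines stayed between 7.82 and 7.99. For the NETs, the form of the protein and the mode of expression cannot be told apart here. Full-length proteins were expressed only in lines and fragments only in cells taken as transient, though the study's text also calls fragment cells stable. NLS-GFP arrays, with no NET introduced, read 7.55 to 7.68 for IL4R, below every untreated array but replicate 4. The cause of the split was not tested.

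Between NLS-GFP and untreated cells IL4R differed by -0.34 ± 0.10 (95% interval -0.55 to -0.12, limma adjusted p = 0.107), not a call. Without untreated replicate 4 the difference was -0.48 and the adjusted p 0.000248, still within 0.5. In the NET47 line it was 0.28 ± 0.10 above untreated cells (interval 0.06 to 0.49, adjusted p = 0.444). The differences of the fragments from NLS-GFP were -0.13, 0.02 and 0.06 for NET29, NET39 and NET47, each with an SE of 0.11 and an adjusted p of at least 0.653. In the NET29 and NET39 lines the differences from untreated cells were -0.07 ± 0.10 and -0.03 ± 0.10, and with NLS-GFP as control they had the other sign, at 0.26 and 0.31. The NET47 line was not contrasted with NLS-GFP. The IL4R means of these 2 groups were 8.23 and 7.61.

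STAT6, the transcription factor of the pathway, had group means from 8.29 ± 0.12 (SD, n = 3) with NLS-GFP to 8.77 ± 0.15 (n = 3) in the NET47 line, a span of 0.48. Untreated cells gave 8.66, 8.88, 8.49 and 8.34, a range that takes in all 4 arrays of the NET29 line (8.51 to 8.82) and of the NET39 line (8.55 to 8.77). The differences of these lines were 0.04 ± 0.09 and 0.03 ± 0.09, and 0.35 and 0.34 with NLS-GFP as control. NLS-GFP arrays read 8.17, 8.28 and 8.41. Those of the NET39 fragment (8.50, 8.60 and 8.45) and of the NET47 fragment (8.66, 8.42 and 8.59) lay above them, by 0.23 ± 0.11 (limma adjusted p = 0.541) and 0.27 ± 0.11 (adjusted p = 0.479). The NET29 fragment gave 8.33, 8.42 and 8.41, a difference of 0.10 ± 0.11 (adjusted p = 0.730).

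STAT6 in the NET47 line read 8.73, 8.64 and 8.93, 0.17 ± 0.10 above untreated cells (adjusted p = 0.834). Between NLS-GFP and untreated cells it differed by -0.31 ± 0.10 (interval -0.52 to -0.10, adjusted p = 0.118). This was -0.39 (adjusted p = 0.0163) without untreated replicate 4, again within 0.5. Untreated replicate 4 was the lowest untreated array for STAT6 as for IL4R.

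**Figure D2:**
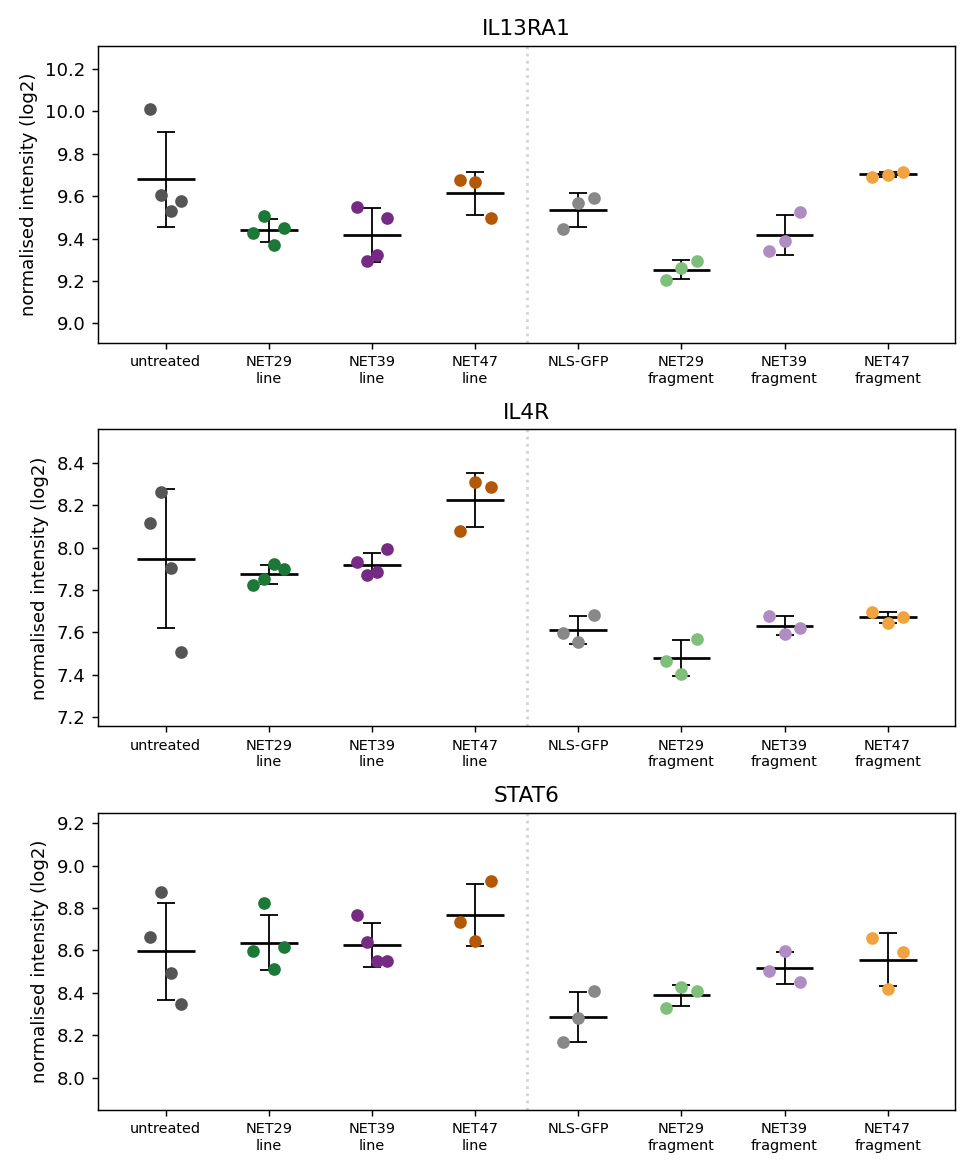
Levels of IL13RA1, IL4R and STAT6 (normalized intensity, log2) on each array by group, each panel spanning the same height; points are arrays, bars are means and error bars are 1 SD. The IL4R panel shows the 12 transient arrays at 7.40 to 7.70, below all others except untreated replicate 4 at 7.51.

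Over the 5 tested comparisons none of the 4 genes was called by limma, in 20 gene-by-comparison tests, 8 of which had an unadjusted p under 0.05. Those were IL13RA2 and IL4R in the NET47 line, IL13RA1 with the NET29 fragment, IL13RA2 and STAT6 with the NET39 fragment, STAT6 with the NET47 fragment, and IL4R and STAT6 between NLS-GFP and untreated cells. The share of all genes with an unadjusted p under 0.05 was not computed, so the 8 have no background beside them. Comparisons with a common control share its arrays, so the 20 tests are not independent. The background shares of genes called in the 5 comparisons, given above, were under 1% in each direction. A count of 0 of 4 called is near that background.

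**Figure D3:**
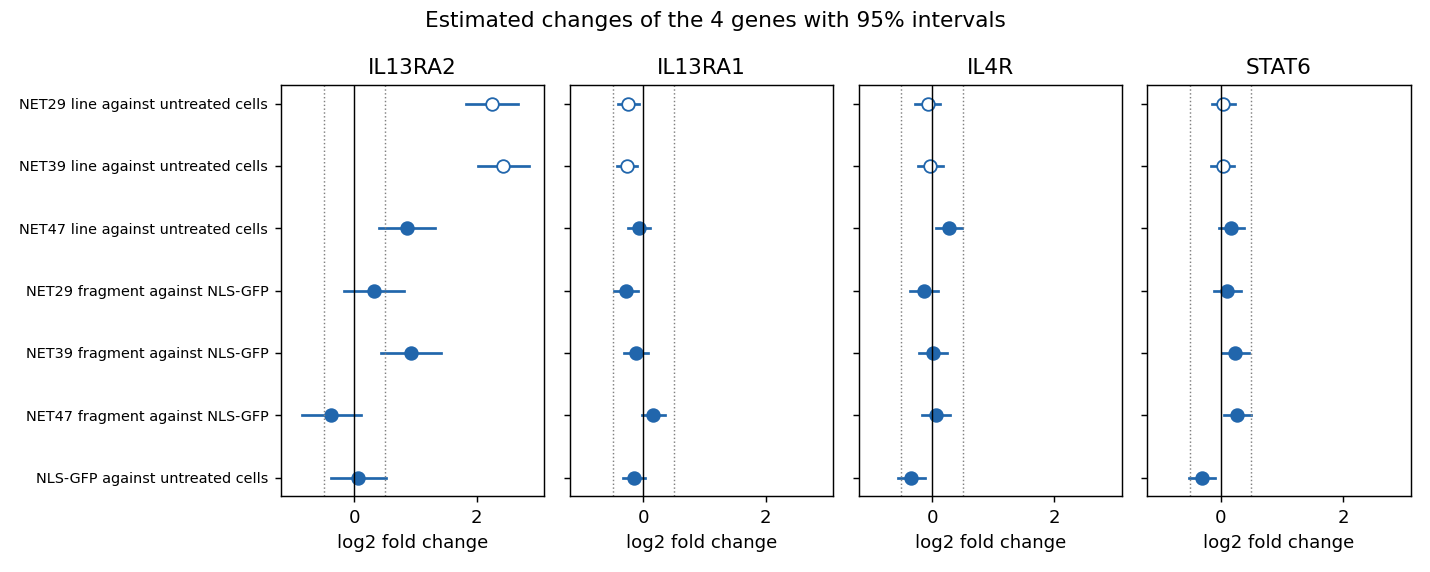
Log2 fold change of each gene in the 7 comparisons with its 95% interval from the limma fit; open circles are the 2 comparisons that chose IL13RA2 (no test), filled circles the 5 tested ones, and dotted lines mark 0.5 in each direction. IL13RA2 stands at 2.25 and 2.44 in the open circles and at 0.86 and 0.92 in the NET47 line and with the NET39 fragment, while the estimates of the other 3 genes stay within 0.5.

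The promoters of IL13RA1, IL4R and STAT6 are shown because these 3 of the 4 genes had an entry in the promoter table. Each run holds 250 bases before and 50 after the start of the gene in RefSeq on GRCh38.p14, written along the strand of the gene, at chrX:118727356-118727655 (plus strand), chr16:27313724-27314023 (plus strand) and chr12:57110240-57110539 (minus strand). Capitals mark CpG dinucleotides, the sites of DNA methylation in mammals.
IL13RA1: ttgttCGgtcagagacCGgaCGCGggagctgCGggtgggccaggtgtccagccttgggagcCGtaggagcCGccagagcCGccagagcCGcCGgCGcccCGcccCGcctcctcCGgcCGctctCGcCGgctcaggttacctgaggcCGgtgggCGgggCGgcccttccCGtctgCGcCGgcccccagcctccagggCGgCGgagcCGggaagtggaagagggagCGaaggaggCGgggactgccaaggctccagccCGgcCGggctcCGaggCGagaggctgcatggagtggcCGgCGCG
IL4R: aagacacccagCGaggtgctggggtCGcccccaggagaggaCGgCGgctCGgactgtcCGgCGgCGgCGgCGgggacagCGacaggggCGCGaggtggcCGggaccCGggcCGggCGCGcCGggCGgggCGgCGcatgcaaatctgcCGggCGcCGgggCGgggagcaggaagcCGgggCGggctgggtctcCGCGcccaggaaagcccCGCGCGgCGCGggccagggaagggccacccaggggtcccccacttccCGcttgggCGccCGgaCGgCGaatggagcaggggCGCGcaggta
STAT6: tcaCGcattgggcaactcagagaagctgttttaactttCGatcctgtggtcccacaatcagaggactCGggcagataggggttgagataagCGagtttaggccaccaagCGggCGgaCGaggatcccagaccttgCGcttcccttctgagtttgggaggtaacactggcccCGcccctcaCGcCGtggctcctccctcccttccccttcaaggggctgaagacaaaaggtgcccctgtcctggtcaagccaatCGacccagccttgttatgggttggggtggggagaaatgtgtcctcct
IL13RA1 has 35 CpG and a GC content of 76.3%, and IL4R has 42 and 79.3%. STAT6 has 12 CpG and 57.7%, close to the medians of 14 and 58.7% over 35116 promoters. Of all promoters, 85.9%, 94.2% and 46.9% held fewer CpG than those of IL13RA1, IL4R and STAT6. The spaced palindromes bound by STAT proteins were searched, the half-sites TTC and GAA with 4 bases between them (held by 6.44% of promoters) or 3 (held by 7.66%). Both read the same on either strand. Neither has a match in these 3 windows, which says only that the letters are not there.

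Both IL-13 receptor genes lie on chromosome X, IL4R on 16 and STAT6 on 12. The nearest protein-coding genes with a probe, 3 on each side of each gene in the order of RefSeq on GRCh38.p14, were read to see whether neighbors moved. Around IL13RA2 these are LHFPL1, AMOT, HTR2C, LRCH2, LUZP4 and PLS3. In the NET29 and NET39 lines PLS3, an actin-bundling protein, differed by 0.37 (limma adjusted p = 0.427) and 0.35 (adjusted p = 0.468), and LHFPL1 by -0.25 and -0.27 (adjusted p = 0.171 and 0.111). Of the 24 neighbors of all 4 genes, 18 were above background on at least 3 arrays. None was called in any of the 7 comparisons, and the largest difference was that of LHFPL1 between NLS-GFP and untreated cells (-0.47, adjusted p = 0.0121). Under other processing LHFPL1 and GTF3C1, near IL4R, passed in that comparison and KLHL13, near IL13RA1, with the NET47 fragment.

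Other genes of the pathway were taken from a list of 63, of which 59 had a probe and 29 were above background on at least 3 arrays. The remaining 4 were not analysed here. The ligands IL4 and IL13 and the common gamma chain IL2RG were above background on no array, as were the kinase JAK3, the inhibitor CISH, the phosphatase PTPN6 and the IL13RA2 ligand CHI3L1. The kinases JAK1, JAK2 and TYK2 were above background on all 27 arrays, and none was called in any comparison. TMEM219, which acts with IL13RA2 as the receptor for CHI3L1, was above background on all 27 and was called in none. Of 22 measured genes known to be induced by IL-4 or IL-13, 4 were above background on at least 3 arrays (MAOA, TGM2, PDCD1LG2 and CDH26). Bulk RNA cannot tell fewer expressing cells from less RNA per cell.

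In the NET29 line 1 pathway gene was called higher and 3 lower, of 59. CSF2RA, the alpha chain of the GM-CSF receptor, rose by 0.69 ± 0.10 (limma adjusted p = 7.25e-05) from 9.28 ± 0.08 (SD, n = 4) to 9.97 ± 0.25 (n = 4). The adaptors IRS1 and SHC1, which link cytokine and insulin receptors to downstream kinases, fell by 0.72 (SE 0.09, adjusted p = 7.77e-06) and 0.79 (SE 0.09, adjusted p = 2.72e-06). TGM2, a transglutaminase that IL-4 and IL-13 induce in macrophages, fell by 0.92 (SE 0.12, adjusted p = 1.80e-05). These shares of the list are 1.69% higher and 5.08% lower, beside 1.06% and 2.23% of all genes. Under median scaling none of the 4 was called, at 0.81 for CSF2RA, -0.68 for IRS1, -0.69 for SHC1 and -0.83 for TGM2.

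In the NET39 line 0 were higher, beside 1.21% of all genes, and 3 lower (5.08% of the list, beside 2.51% of all genes), again IRS1, SHC1 and TGM2. IRS1 fell by 0.87 (SE 0.09, limma adjusted p = 3.98e-07), from 8.29 ± 0.11 (SD, n = 4) to 7.42 ± 0.18 (n = 4). SHC1 fell by 1.00 (SE 0.09, adjusted p = 6.45e-08) and TGM2 by 1.12 (SE 0.12, adjusted p = 9.01e-07). Under median scaling IRS1 (-0.85) and SHC1 (-0.91) were not called. The NET29 and NET39 lines share their controls, so that falling in both is not independent. CSF2RA has 4 probes: the brightest one differed by 0.30 (adjusted p = 0.134) in the NET39 line, while 2 others rose in both lines, by 1.46 and 1.33 in the NET29 line and by 1.14 and 0.90 in the NET39 line. Both rose with the NET47 fragment too, by 1.02 and 0.81, where the brightest differed by 0.36 (adjusted p = 0.262).

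In the NET47 line MAOA, a monoamine oxidase that IL-4 and IL-13 induce strongly in monocytes, rose by 1.75 ± 0.13 (3.36-fold, limma adjusted p = 1.06e-08). Its level was 10.39 ± 0.26 (SD, n = 3) against 8.64 ± 0.29 (n = 4), and the ranges did not overlap. TGM2 fell there too, by 1.05 (SE 0.13, adjusted p = 2.84e-05), a call that was lost at the same difference with only the arrays of the 2 groups in the fit (adjusted p = 0.146). The list had 1.69% called in each direction, beside 0.584% of all genes higher and 0.627% lower. These 2 target genes, measured on the same arrays, thus went opposite ways.

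With the NET47 fragment 2 pathway genes were higher and 2 lower, 3.39% of the list each way, beside 0.354% and 0.814% of all genes. IRS2, an adaptor like IRS1, rose by 0.54 ± 0.13 (limma adjusted p = 0.0423) and IL7R, the IL-7 receptor alpha chain, by 0.59 ± 0.12 (adjusted p = 0.00824). IRS1 fell by 0.65 (SE 0.10, adjusted p = 0.000656) and TGM2 by 0.82 (SE 0.14, adjusted p = 0.00184). The replicate block over all arrays left IRS2 uncalled (adjusted p = 0.0631), and over the 6 arrays compared it kept it (adjusted p = 1.13e-05). IRS2 was lost without NLS-GFP replicate 1 (0.49) or NET47 fragment replicate 3 (0.46), and both IRS2 and IL7R without NLS-GFP replicate 2 (0.47 and 0.56) or NET47 fragment replicate 1 (0.54 and 0.52). Under median scaling none of the 4 was called, at 0.91 for IRS2, 0.95 for IL7R, -0.30 for IRS1 and -0.44 for TGM2. None of the 59 was called with the NET29 or NET39 fragment or between NLS-GFP and untreated cells.

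The median difference of the 59 genes lay between -0.05 and 0.03 in the 7 comparisons, beside -0.01 and 0.0041 for all genes. Probes of 1 gene did not always agree. A second SHC1 probe fell in the NET29 line (by 0.59) and gave -0.46 in the NET39 line, and the last was called in neither. The 2 dimmer TGM2 probes were not called in any of these comparisons, at -0.27 to -0.61. The second IL7R probe gave 0.33 with the NET47 fragment (adjusted p = 0.731). The second IRS1 probe was above background on 0 arrays, so the IRS1 calls rest on 1 probe. The last CSF2RA probe, above background on all 27 arrays, was not called, at 0.47 in the NET29 line and 0.21 in the NET39 line. MAOA and IRS2 were each read by 1 probe.

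**Figure D4:**
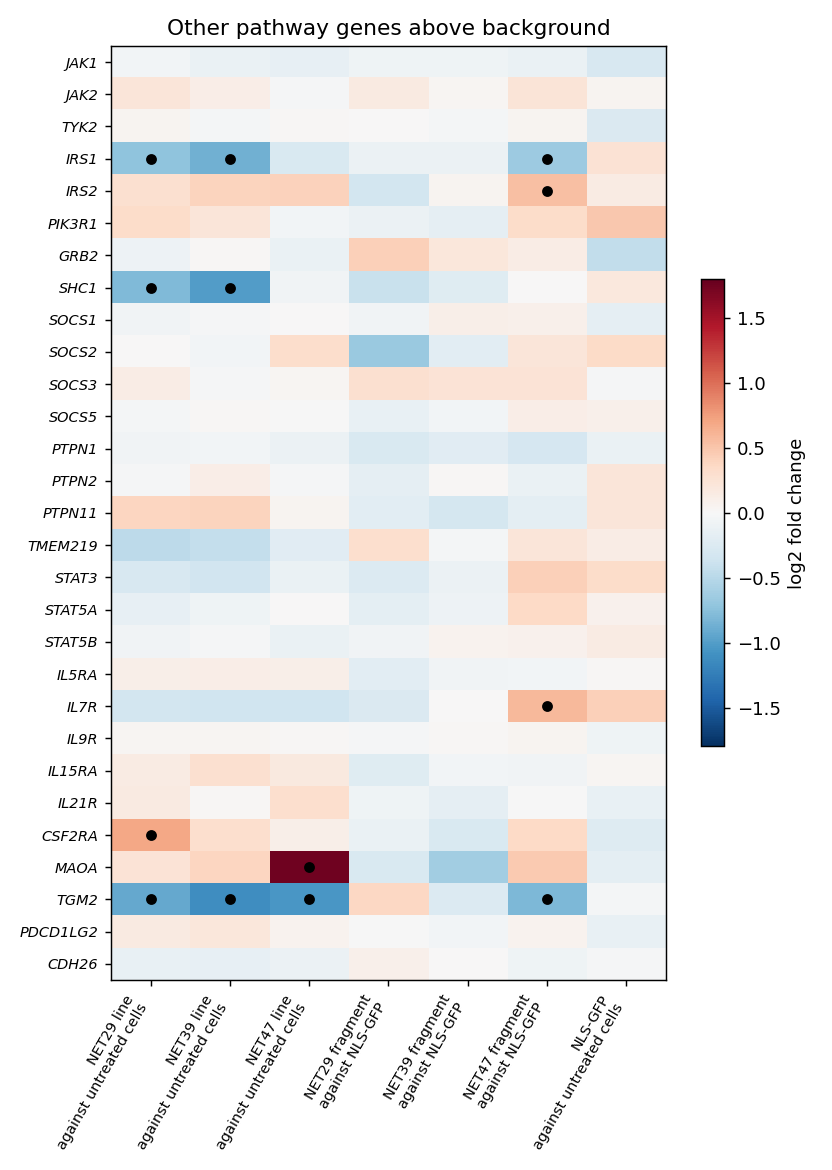
Log2 fold change (color scale) of the 29 other pathway genes above background on at least 3 arrays, in the 7 comparisons, each gene by its brightest probe; black dots mark calls. Among the marked cells are MAOA in the NET47 line (1.75), TGM2 in the 3 lines (-0.92, -1.12 and -1.05) and SHC1 in the NET39 line, and the columns of the NET29 and NET39 fragments hold no dot.

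The genes with the pattern most like that of IL13RA2 over the 8 group means were found among 845 genes above background in a whole group whose own means span at least 1. Since the same 27 arrays give both patterns and the NET29 and NET39 lines carry most of the spread, the correlations are a description. The highest were BATF3, a transcription factor (Pearson r = 0.97), ACOX2, a peroxisomal oxidase (0.96), ELOVL4, a fatty acid elongase (0.96), MMP3, a matrix metalloproteinase (0.95), and SLC14A1, a urea transporter (0.95). MMP3 was closest in size, with group means of 9.18 and 9.61 in the NET29 and NET39 lines, 7.98 with the NET39 fragment, 7.80 in the NET47 line and 7.09 in untreated cells. It parted from IL13RA2 with the NET29 fragment, where it was at its lowest (6.75), and with the NET47 fragment, where it was above NLS-GFP (7.17 against 6.92) and IL13RA2 below it (6.58 against 6.96).

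The lowest correlations were those of MMP9, another matrix metalloproteinase (-0.97), DCAF6 (-0.97) and APOBEC3G, a cytidine deaminase (-0.95). Under median scaling they were -0.84, -0.615 and -0.745. MMP9 was below untreated cells by 1.54 in the NET29 line and by 1.90 in the NET39 line, where 2 of 4 arrays were above background. Its untreated arrays spread widely (8.06 ± 1.43, SD, n = 4). The other 3 of the 4 genes had no such search, because their group means span less than 1.

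**Figure D5:**
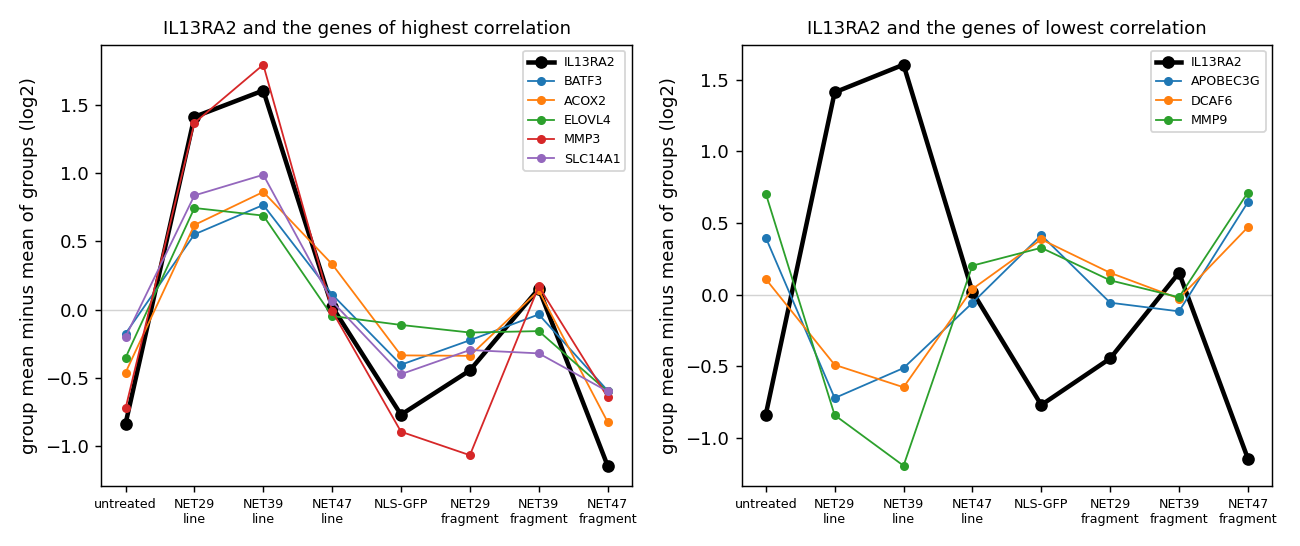
Group means of IL13RA2 (black) and of the 5 genes with the highest (left) and the 3 with the lowest (right) correlation with it over the 8 groups, each minus its mean over groups (log2). In the left panel MMP3 is nearest to IL13RA2 in size, with its widest gaps at the NET29 and NET47 fragments, and in the right panel MMP9, DCAF6 and APOBEC3G are lowest in the NET29 and NET39 lines.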

How the data were processed

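The authors labelled total RNA as biotin cRNA and hybridized 1 HumanHT-12 v3 bead array for each sample. The deposited intensity table holds bead intensities of 48803 probes with no normalization, and every value above comes from it. The deposited log2 table holds values that the authors quantile normalized with limma, of a version not stated, and served as an alternative.

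Intensities were background-corrected in limma 3.58.1 (R 4.3.3) by normexp (offset 50, which draws small differences towards 0), quantile normalized and fitted as 8 group means over all 27 arrays (19 residual degrees of freedom), and the fit was tested on simulated data. Contrasts were tested by limma's moderated statistic, with Benjamini-Hochberg adjustment over all probes. The number of arrays limits the precision. A gene was read by its brightest probe on average, and background was the 95th percentile of 620 probes of silent families. A single gene symbol was given for 27577 probes, several for 13 and none for 21213, and 27540 probes were matched to RefSeq by Entrez identifier. Probe sequences and positions were not used. IL13RA2 had no entry in the promoter table. Slides and scan dates are not given, so batches were not tested.

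The genes, lists and tests were chosen with earlier results of these data known. Genes named are the 4 genes, every called pathway gene, the expressed NETs, the 3 nearest genes on each side, and the likest genes for any of the 4 whose means span at least 1. The other leading rises of the NET29 and NET39 lines and the pathway genes below or near background were named after their values were seen.

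The study speaks of biological replicates and, for the stable lines, of separate passages, while the labels only number them, and p-values measure the spread between these arrays. The sample titles say only that the fragment and NLS-GFP cells were transfected. They were taken as transient, while the study's text in 1 place calls the fragment cells stable. No 2 arrays held identical values (highest correlation 0.996). Replicate numbers were checked for pairing by the correlation of deviations from the group means. Correlations ranged from -0.62 to 0.64 over 23 pairs. Only for the NET47 fragment and NLS-GFP was every pair over 0.1 (0.56, 0.39 and 0.61). That comparison was picked out from these same correlations and the labels state no pairing, so a pairing there is not established.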

Additional observations from a re-analysis of the deposited data

Results flagged for a closer look

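IL13RA1 on untreated replicate 1 (10.01) lay far from the 3 other untreated arrays (9.53 to 9.60), by 0.844 of the range of the group. This was the 1 such array among 33 groups of 4 examined over the 4 genes and the called pathway genes, where chance gives about 1 in 20.

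IL13RA2 differed between the NET39 and NET47 fragments, contrasted directly, by 1.30 (limma adjusted p = 0.00281), with all 3 arrays of the former above all 3 of the latter. IL13RA1 differed between the NET29 and NET47 fragments by -0.45 (adjusted p = 0.00599), which is within the limit of 0.5 for a call. It was called in 1 of 14 alternative settings. These are 2 of 16 differences of this kind examined, all added after the levels had been seen.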

How the results depend on the processing

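No alternative turned the direction of a called value. With normexp offset 16, IL13RA2 was 2.68 and 2.88 above untreated cells in the NET29 and NET39 lines and 1.12 in the NET47 line, where it made 1 of the 4 genes called, and it was also called between the NET29 and NET47 fragments (0.99) and for the NET47 line effect minus the fragment effect (1.66). Without the 3 arrays that stand apart IL13RA2 was 1.85 and 2.05 in the first 2 lines. It was then called with the NET39 fragment (0.92, 1 of the 4 genes) and between the NET29 and NET47 fragments (0.70). In that setting 1 pathway gene was called with the NET39 fragment and 2 between NLS-GFP and untreated cells. All genes called rose in these 2 comparisons from 27 to 124 and from 208 to 686. With only probes above background in the fit, IL13RA2 was called in the NET47 line (0.86, 1 of the 4 genes). With only the arrays of the groups compared it was called with the NET39 fragment (0.92, 1 of the 4 genes), against the NET29 fragment (0.60) and between the NET29 and NET47 fragments (0.70). In that setting 1 pathway gene was called in the NET47 line, where TGM2 was lost at -1.05, and 1 with the NET39 fragment (MAOA, -0.62). All genes called went from 226 to 24 in the former and from 27 to 132 in the latter.

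Under median scaling the median difference of genes above background was -0.27 with the NET29 fragment, 0.25 with the NET47 fragment and -0.11 between NLS-GFP and untreated cells, against -0.03, 0.01 and -0.01 after quantile normalization. It ended the call of IL13RA2 between the NET39 and NET47 fragments (1.01) and left 0 pathway genes called in the NET29 line, 1 in the NET39 line and 0 with the NET47 fragment, in the directions given above. All genes called fell there from 614 to 247 in the NET29 line, from 694 to 291 in the NET39 line, from 226 to 94 in the NET47 line and from 208 to 7 between NLS-GFP and untreated cells. Against NLS-GFP the NET39 line had 7 pathway genes called, adding IL7R, STAT3, CSF2RA and MAOA, while all genes called rose from 694 to 1334. The NET29 line had 6 there, adding STAT3 and IL7R, while all genes called rose from 614 to 1240. The replicate block left 0 of the 4 genes called and added 1 pathway gene with the NET39 fragment (MAOA, -0.62), and apart from IRS2 with the NET47 fragment it changed no other call of these genes. The replicate numbers were not shown to pair samples in any comparison (pairs in 9 of 23 cases over 0.1).

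Leaving out 1 array at a time, IL13RA2 ranged from 0.67 to 1.08 in the NET47 line and from 0.75 to 1.20 with the NET39 fragment, with 0 to 1 of the 4 genes called in each, and the NET47 line effect minus the fragment effect ranged from 0.95 to 1.46 (called without untreated replicate 1, 1.40). Pathway genes called ranged from 0 to 1 with the NET29 fragment (SOCS2 without NLS-GFP replicate 3), from 0 to 1 with the NET39 fragment (MAOA without NLS-GFP replicate 3), from 2 to 4 with the NET47 fragment and from 0 to 2 between NLS-GFP and untreated cells (GRB2 and IL7R without untreated replicate 1, STAT3 without untreated replicate 4, GRB2 without NLS-GFP replicate 3). All genes called ranged in these comparisons, in the same order, from 79 to 337, from 7 to 289, from 147 to 229 and from 53 to 721. In the other comparisons and settings the counts of pathway genes called stayed within 1.5 times. Between the NET29 and NET47 fragments IL13RA1 and STAT6 were each called in 1 of 14 alternative settings. Their differences there ranged from -1.32 to -0.42 and from -0.95 to -0.12 over all settings. With 1 array left out they stayed within -0.47 and -0.24. Each of the 4 genes has 1 probe, so that reading probes separately could not give a value. Groups of 3 and 4 arrays limit the precision of all of these values. The causes of these changes were not tested.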
